A study of Homo sapiens with 10 samples.

Results

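Aminoacyl-tRNA synthetases are the enzymes that load each amino acid onto its tRNA. The genes described here are the 19 synthetase genes of the cytosolic set with the 3 scaffold genes AIMP1, AIMP2 and EEF1E1, and the 16 genes of the mitochondrial set, 38 genes in all. They were chosen by symbol from the 54628 genes of the deposited table. All 38 were in the table, and all 38 were among the 20125 genes that passed the filter on low counts, with 1149 to 54130 estimated counts per gene and library.

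The cells were NK-92, an established human cell line derived from a lymphoma of natural killer cells and kept in a medium with human serum. One group was given 500 µM deferoxamine (DFO), a small molecule that binds iron, for 6 h or 24 h. The other was given 10 µg/mL PPMX-T003 (T003 here), an antibody to the transferrin receptor encoded by TFRC, for 6 h or 24 h. The reference was cells collected at 0 h with no agent. Each of the 5 groups had 2 libraries of polyadenylated RNA. Whether the 2 libraries of a group came from separate cultures is not in the labels; the spread behind each p-value is that between libraries and may be technical. No untreated cells were collected at 6 h or 24 h. An agent's effect and that of time in culture therefore cannot be told apart, in comparisons with untreated cells or between 24 h and 6 h.

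Each synthetase first joins its amino acid to AMP and then transfers it to the tRNA. The enzymes fall into classes I and II, which have unrelated catalytic folds. In human cells the cytosol and the mitochondria mostly use enzymes from separate nuclear genes, named with a final 1 and a final 2. GARS1 and KARS1 are exceptions that encode both forms, and EPRS1 carries the glutamate and the proline activities on 1 protein. Several cytosolic enzymes are held with AIMP1, AIMP2 and EEF1E1 in the multi-tRNA synthetase complex. Many cytosolic synthetase genes are known targets of ATF4, the transcription factor made when uncharged tRNA or other stresses activate the eIF2 kinases.

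Libraries held 107117892 to 143575614 estimated counts, and the 38 genes took 0.522% to 0.533% of them. TFRC, the gene of the protein that T003 binds, had 834 and 833 CPM (counts scaled to library size, here with TMM) in DFO 24 h cells and 845 and 847 CPM in T003 24 h cells, against 177 and 165 CPM in untreated cells. Of 15 NK cell markers, 14 averaged at least 1 CPM, and the other, FCER1G, averaged 0.983 CPM. Their summed level was 3947 to 3986 CPM in DFO 24 h cells and 4194 to 4229 CPM in T003 24 h cells, against 3771 to 3836 CPM in untreated cells, and its part in the results below was not tested. Of the T cell markers CD3E, TRAC, TRBC1 and TRBC2 reached a mean of 1 CPM, of the myeloid markers ITGAM and CD68, and of the erythroid, epithelial, stromal and endothelial markers PECAM1. No B cell marker did. In bulk samples, fewer cells of a kind and less RNA per cell cannot be told apart.

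In untreated cells the cytosolic genes were the more abundant set. Per kilobase of transcript, levels in the cytosolic set ran from 25.9 CPM per kb for CARS1 to 178.9 CPM per kb for KARS1, with a median of 62.1 CPM per kb. Levels in the mitochondrial set ran from 4.49 CPM per kb for PARS2, the mitochondrial prolyl enzyme, to 36.0 CPM per kb for CARS2, the mitochondrial cysteinyl enzyme, with a median of 15.5 CPM per kb. Of the 22 cytosolic genes, 18 lay above the highest mitochondrial gene, and none of the 16 mitochondrial genes reached the cytosolic median. Cysteine was an exception to the order on this scale, since CARS2 stood above CARS1. Without the division by length CARS1 was the higher, at a mean of 71.0 CPM against 66.1 CPM for CARS2.

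**Figure D1:**
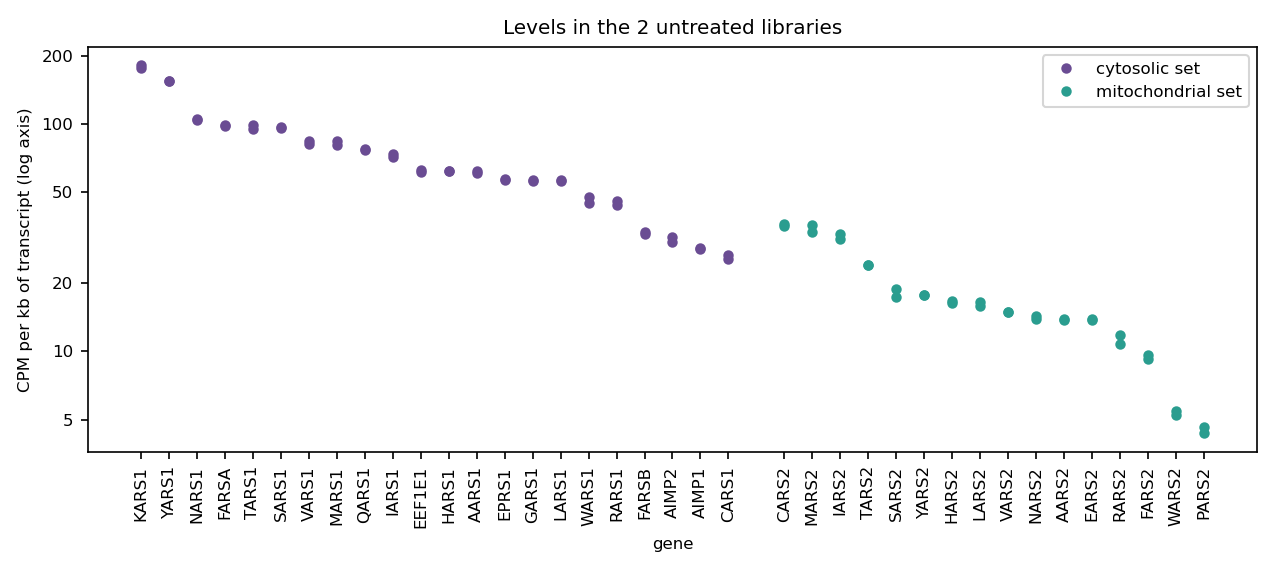
Level of each gene in the 2 untreated libraries, in CPM per kb of transcript on a log axis, with the cytosolic set on the left and the mitochondrial set on the right, each sorted from high to low. Cytosolic genes run from 178.9 CPM per kb for KARS1 to 25.9 for CARS1, and mitochondrial genes from 36.0 for CARS2 to 4.49 for PARS2.

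The balance of the sets was nearly the same in every library. The summed level of the cytosolic set was 5.62 and 5.66 times that of the mitochondrial set per kb in DFO 24 h cells and 5.61 in both T003 24 h libraries, against 5.67 and 5.76 times in untreated cells. Over all 10 libraries this ratio stayed between 5.61 and 5.81. The largest shifts described below were in single genes.

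At 24 h, 2 cytosolic genes fell with both agents, AARS1 and CARS1, the alanyl- and cysteinyl-tRNA synthetases. KARS1, the lysyl-tRNA synthetase, and AIMP1, a scaffold protein of the complex, rose with both. With T003, FARSA and FARSB (the 2 subunits of the phenylalanyl enzyme) and YARS1 (the tyrosyl enzyme) also rose, and IARS1 and MARS1 (the isoleucyl and methionyl enzymes) fell. These shifts were small: the widest, AARS1 with T003, had a log2 fold change of -0.40. All other cytosolic genes missed the threshold, which was an adjusted p under 0.05 in edgeR's quasi-likelihood F-test with Benjamini-Hochberg adjustment over all 20125 genes.

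**Figure D2:**
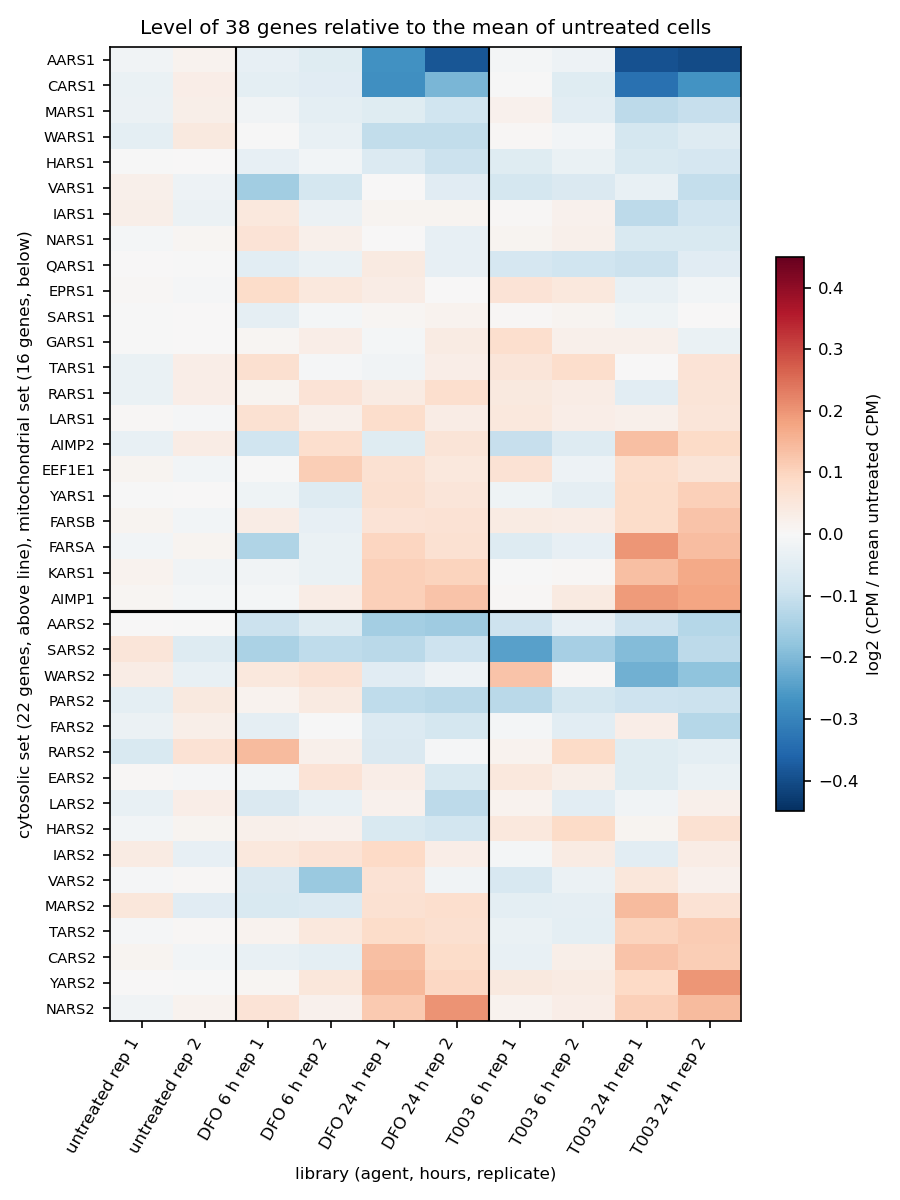
Level of the 38 genes in each of the 10 libraries, as log2 of the CPM over the mean CPM of untreated cells, with blue for lower and red for higher. Rows are sorted within each set by the mean change at 24 h. AARS1 and CARS1 are the darkest blue rows, in the 24 h libraries of both agents.

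After DFO for 24 h, 4 of 22 cytosolic genes were called (18.2%), 2 higher and 2 lower, beside 6.7% of all genes tested. Among all genes, 3.43% were higher and 3.27% lower. The median log2 fold change of the set was 0.01, against 0.00 over all genes. After T003 for 24 h, 9 of 22 were called (40.9%), 5 higher and 4 lower, beside 12.5% of all genes tested, of which 7.1% were higher and 5.44% lower. The median of the set was -0.01, as it was over all genes. Well-counted genes are called more often at small changes: among the 8473 genes whose mean level lay within the range of the 38, a group formed after the values were seen, 13.4% were called with DFO and 24.3% with T003. The 2 comparisons share their untreated libraries.

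These counts depended on single libraries. The 4 cytosolic calls with DFO became 2 without untreated replicate 2, DFO 24 h replicate 1 or DFO 24 h replicate 2, where AARS1 and CARS1 were the 2 that passed. The 9 calls with T003 became 4 without T003 24 h replicate 1. AARS1 and CARS1 passed in every one of the 10 leave-one-out fits with either agent, and KARS1 and AIMP1 in every one with T003.

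AARS1 showed the widest fall of the 38 genes. It had 176 and 162 CPM in DFO 24 h cells and 161 and 160 CPM in T003 24 h cells, against 210 and 214 CPM in untreated cells. All 4 libraries of the 24 h groups lay below both untreated libraries. Such lack of overlap with the untreated libraries is common: at 24 h it held for 49.3% of all genes with DFO and 52.8% with T003. It fell by 20.3% with DFO (log2 fold change -0.33, SE 0.03, adjusted p = 0.000179, edgeR) and fell by 24.1% with T003 (log2 fold change -0.40, SE 0.03, adjusted p = 3.71e-05, edgeR). At 6 h it had 207 and 204 CPM in DFO cells and 211 and 209 CPM in T003 cells, where the DFO libraries lay just below both untreated ones, the T003 libraries overlapped them, and neither group passed the test.

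CARS1 followed the same course at a lower level. It had 58.6 and 61.6 CPM in DFO 24 h cells and 56.3 and 58.9 CPM in T003 24 h cells, against 69.6 and 72.4 CPM in untreated cells, with no overlap. The log2 fold change was -0.24 with DFO (SE 0.04, adjusted p = 0.00308, edgeR) and -0.30 with T003 (SE 0.04, adjusted p = 0.000475, edgeR). An antisense gene, CARS1-AS1, overlaps CARS1, and since no source used here gives the strand setting of the counting, reads of this pair cannot be told apart.

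MARS1 and IARS1, both part of the multi-tRNA synthetase complex, fell with T003 by smaller amounts. MARS1 had 213 and 215 CPM in T003 24 h cells, against 227 and 235 CPM in untreated cells (log2 fold change -0.11, SE 0.03, adjusted p = 0.0282, edgeR), and DFO 24 h cells had 223 and 217 CPM (adjusted p = 0.194, edgeR). IARS1 had 300.1 and 306 CPM in T003 24 h cells, against 331 and 319 CPM in untreated cells (log2 fold change -0.10, SE 0.03, adjusted p = 0.0355, edgeR). In DFO 24 h cells IARS1 had 328 CPM in both libraries, within the untreated range. MARS1 overlaps DDIT3, a stress factor gene that fell further than MARS1, so reads of the 2 genes may be shared, and the part of this in the MARS1 result was not tested. The MARS1 call was lost without untreated replicate 2, T003 24 h replicate 1 or T003 24 h replicate 2. The IARS1 call was lost in 7 of 10 leave-one-out fits, with an adjusted p of up to 0.204.

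The promoters of the 4 cytosolic genes that fell with T003 share a short motif. RefSeq promoter windows (GRCh38.p14, 250 bases before to 50 bases after the start) were listed for 33 of the 38 genes and were searched on both strands for TGATGNAA (N is any base), the core of the composite site bound by ATF4 with a C/EBP partner and known as the amino acid response element. Some genes have more than 1 window. The motif was found for 8 of these 33 genes (24.2%), 7 of 19 cytosolic and 1 of 14 mitochondrial, beside 3.62% of all 35116 windows and 3.01% of the 12572 tested genes with a window. The 30-base stretches around the 8 matches are printed on the strand of their gene, since 4 of them belong to those genes. Capitals mark the match, which reads as TTGCATCA or TTTCATCA where it lies on the opposite strand.

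AARS1, chr16:70289675-70289704, minus strand: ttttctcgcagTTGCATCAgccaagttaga
CARS1, chr11:3057407-3057436, minus strand: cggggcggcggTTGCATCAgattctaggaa
IARS1, chr9:92293692-92293721, minus strand: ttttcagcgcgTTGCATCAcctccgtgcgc
MARS1, chr12:57488053-57488082, plus strand: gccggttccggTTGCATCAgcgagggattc
NARS1, chr18:57621804-57621833, minus strand: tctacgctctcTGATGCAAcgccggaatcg
TARS1, chr5:33440956-33440985, plus strand: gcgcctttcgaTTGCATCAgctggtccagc
GARS1, chr7:30594834-30594863, plus strand: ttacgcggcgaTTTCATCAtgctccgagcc
YARS2, chr12:32756076-32756105, minus strand: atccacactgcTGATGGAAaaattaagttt

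The first 6 stretches hold the same 8 letters, TGATGCAA, on one strand or the other, a motif singled out after the stretches were seen. It was found for 6 of the 33 genes (18.2%) and in 0.866% of all windows. Relative to the start that the promoter table uses, the match began 187 bases before it in AARS1, 2 bases before in CARS1, 13 before in IARS1 and 4 before in MARS1, and lay at base 15 in NARS1 and base 3 in TARS1. GARS1 and YARS2 hold another letter at the free position of TGATGNAA, 33 and 197 bases before that start. The annotated genes GARS1 and TARS1 begin upstream of the start in the promoter table, so that their matches lie inside the annotated gene.

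With T003 at 24 h, 4 of the 8 genes with TGATGNAA were called lower and none higher, while of the 25 genes with a window and no match none was called lower and 6 were called higher. With DFO, 2 of the 8 were lower and none higher, and of the 25 none was lower and 3 were higher. The other 4 genes with the motif were not called. Their log2 fold changes with T003 were 0.03 for TARS1, 0.00 for GARS1, -0.07 for NARS1 and 0.15 for YARS2. That of YARS2 was the highest of the mitochondrial set. NARS1, the asparaginyl enzyme, had 275 CPM in both T003 24 h libraries, against 287 and 291 CPM in untreated cells. It missed the threshold (adjusted p = 0.0808, edgeR). YARS2, which went the other way, missed the threshold by less than NARS1 did. Between 24 h and 6 h of T003, 5 of the 8 genes were lower and none higher. Of the 25 genes, 2 were lower there (EPRS1 and WARS2) and 6 higher. Between 24 h and 6 h of DFO, 2 of the 8 were lower and none higher, and of the 25 none was lower and 5 were higher. AARS2, lower with both agents at 24 h, and YARS1, higher with T003, had no window listed.

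Over all tested genes, those with TGATGNAA were called lower about as often as those without it, and higher less often by count, a difference that was not tested. Of the 378 tested genes with TGATGNAA, 7.14% were lower and 4.76% higher with T003, against 6.90% lower and 9.19% higher of the 12194 without it. With DFO, 3.70% of those with it were lower and 2.65% higher, against 4.17% and 4.30% of those without it. For TGATGCAA, 15 of 95 tested genes (15.8%) were lower with T003, 4 of them the genes named here, and 4.21% higher, against 6.84% lower and 9.10% higher of those without it. With DFO, 6 of 95 (6.32%) were lower and 2.11% higher, against 4.14% and 4.26%. No window was listed for VARS1, LARS1, VARS2, AARS2 and YARS1. The longer motif TGATGCAAT was found for TARS1 only among the 33 genes. CACGTG, the E-box, was found for 5 genes (15.2%, and 11.7% of tested genes): IARS1, AIMP2, CARS2, EARS2 and MARS2. CCAAT was found for 19 genes (57.6%, and 42.1% of tested genes). A match is a description of letters and does not show that a factor was bound.

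**Figure D3:**
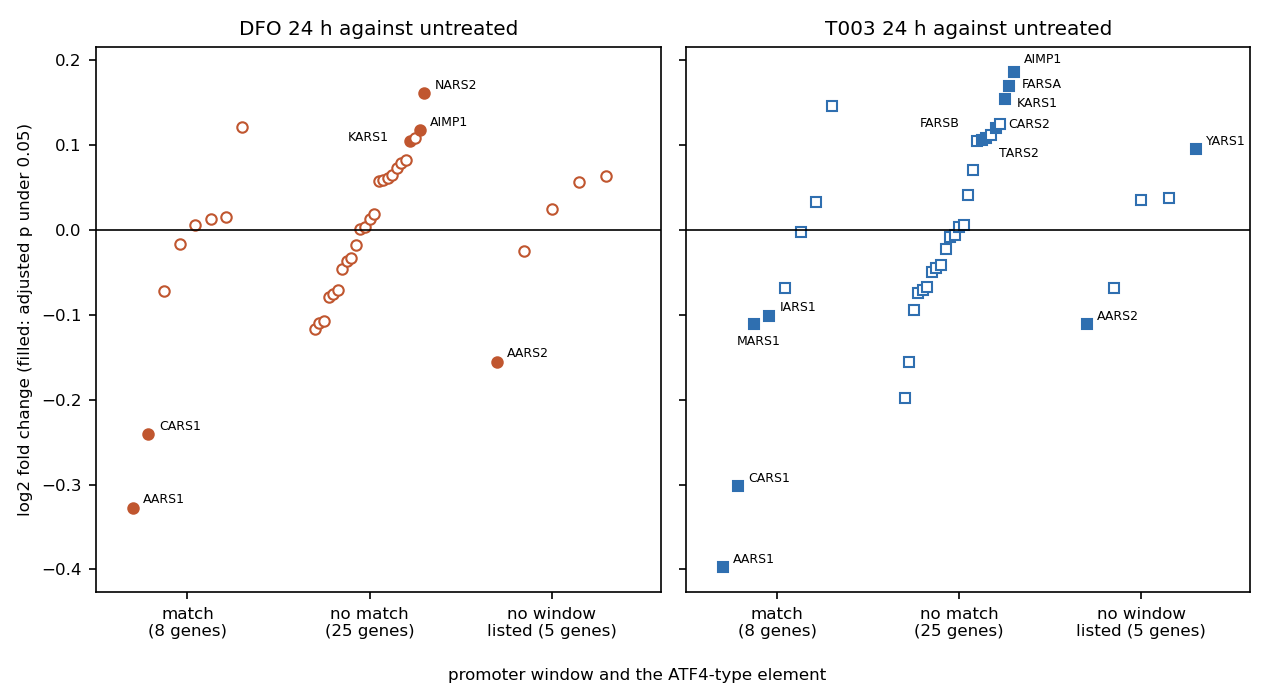
Log2 fold change at 24 h against untreated cells for the 38 genes, with DFO on the left and T003 on the right, by whether the promoter window holds TGATGNAA (8 genes), does not (25 genes) or is not listed (5 genes). Filled symbols have an adjusted p under 0.05; with T003 the filled symbols lie below 0 in the first group (4 genes) and above 0 in the second (6 genes).

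KARS1 was the most abundant of the 38 genes per kb and was among the few that rose. It had 384 and 382 CPM in DFO 24 h cells and 392 and 401 CPM in T003 24 h cells, against 360 and 352 CPM in untreated cells, with no overlap. The log2 fold change was 0.10 with DFO (SE 0.02, adjusted p = 0.0154, edgeR) and 0.15 with T003 (SE 0.02, adjusted p = 0.00102, edgeR). The call with DFO was lost without untreated replicate 2, DFO 24 h replicate 1 or DFO 24 h replicate 2, with an adjusted p of up to 0.144.

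AIMP1, the scaffold that is also the precursor of a secreted cytokine, rose beside it. It had 84.4 and 85.8 CPM in DFO 24 h cells and 89.6 and 88.8 CPM in T003 24 h cells, against 78.9 and 78.0 CPM in untreated cells. The log2 fold change was 0.12 with DFO (SE 0.03, adjusted p = 0.0265, edgeR) and 0.19 with T003 (SE 0.03, adjusted p = 0.00130, edgeR). The DFO call was lost without either untreated library or either DFO 24 h library, with an adjusted p of up to 0.181. AIMP1 overlaps TBCK at its start, and reads of the 2 genes may be shared.

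The other scaffold genes missed the threshold. AIMP2 had 35.9 and 38.8 CPM in DFO 24 h cells and 40.9 and 39.6 CPM in T003 24 h cells, against 36.4 and 38.1 CPM in untreated cells. EEF1E1 had 68.3 and 67.3 CPM in DFO 24 h cells and 68.8 and 67.9 CPM in T003 24 h cells, against 65.7 and 64.6 CPM in untreated cells. Of the 10 genes listed for the complex, KARS1 and AIMP1 were higher with both agents, and MARS1 and IARS1 were lower with T003. Of all genes, 6.7% were called with DFO and 12.5% with T003. Of those within the range of levels of the 38, 13.4% and 24.3% were. Its remaining enzymes, EPRS1, LARS1, QARS1 and RARS1, had log2 fold changes between -0.07 and 0.06 with both agents and were not called. The complex thus held calls in both directions.

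FARSA and FARSB, whose products form 1 enzyme of 2 kinds of subunit, both rose with T003. FARSA had 205 and 196 CPM in T003 24 h cells, against 177 and 180 CPM in untreated cells (log2 fold change 0.17, SE 0.03, adjusted p = 0.00759, edgeR), and DFO 24 h cells had 191 and 187 CPM (adjusted p = 0.214, edgeR). FARSB had 238 and 245 CPM in T003 24 h cells, against 226 and 222 CPM in untreated cells (log2 fold change 0.11, SE 0.03, adjusted p = 0.0255, edgeR), and DFO 24 h cells had 234 and 235 CPM (adjusted p = 0.218, edgeR). The FARSA call was lost without untreated replicate 1 or T003 24 h replicate 1. The FARSB call was lost in 5 of 10 leave-one-out fits. FARSA overlaps its antisense gene FARSA-AS1.

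YARS1 had 399 and 406 CPM in T003 24 h cells, against 377 CPM in both untreated libraries (log2 fold change 0.09, SE 0.02, adjusted p = 0.0172, edgeR). DFO 24 h cells lay between these groups, at 397 and 391 CPM (adjusted p = 0.134, edgeR). The T003 call was lost without either untreated or either T003 24 h library. YARS1 overlaps S100PBP.

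**Figure D4:**
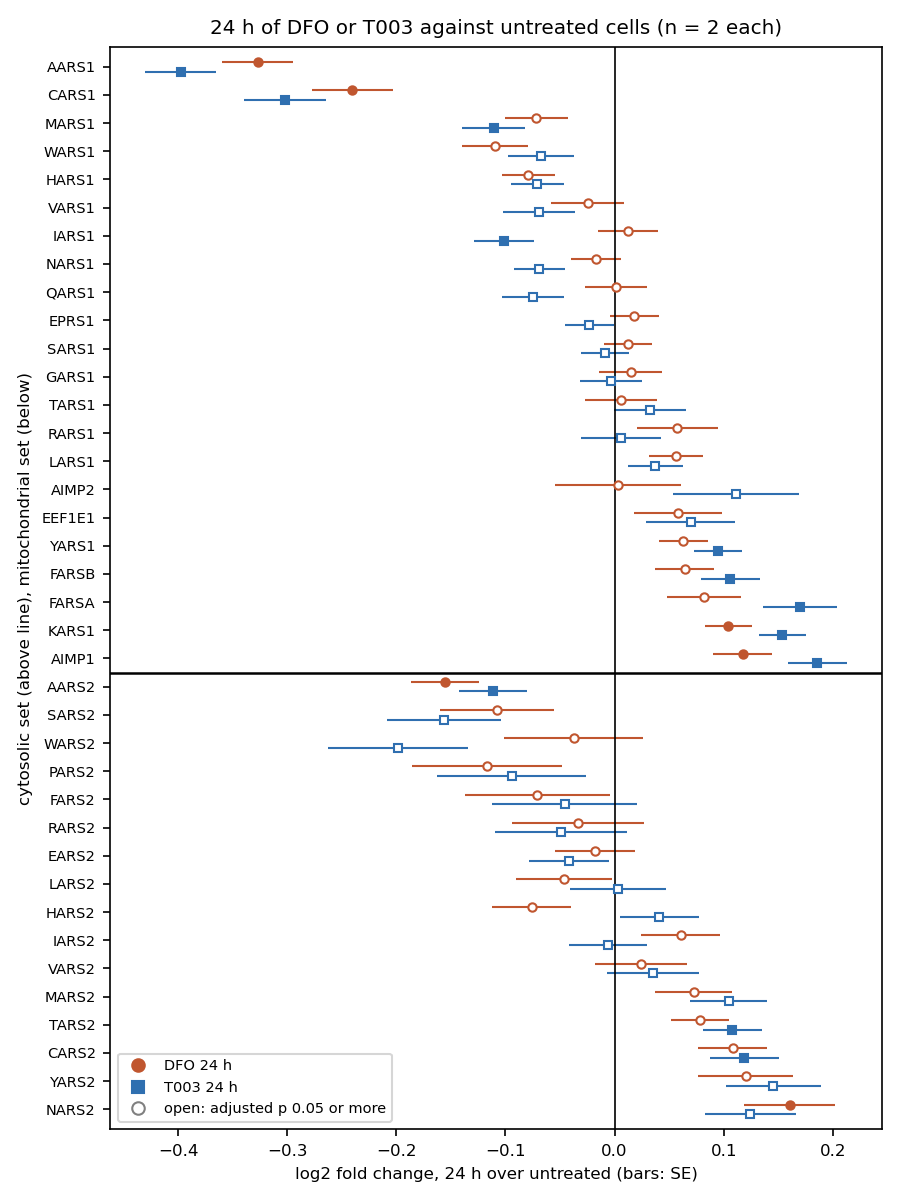
Log2 fold change of each gene after 24 h of DFO (circles) or T003 (squares) against untreated cells, with SE as bars and filled symbols for an adjusted p under 0.05, 2 libraries per group. AARS1 and CARS1 stand apart at -0.33 and -0.24 with DFO and -0.40 and -0.30 with T003; the other genes lie between -0.20 and 0.19.

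WARS1, the tryptophanyl enzyme, is known as a gene that interferon gamma induces in many cell types. It had 113 CPM in both DFO 24 h libraries and 116 and 118 CPM in T003 24 h cells, against 119 and 126 CPM in untreated cells, and missed the threshold in both (adjusted p = 0.0571 and 0.202, edgeR). IFNG itself had 12.3 and 13.3 CPM in DFO 24 h cells and 16.3 and 15.3 CPM in T003 24 h cells, against 8.31 and 6.02 CPM in untreated cells, and rose with both agents (adjusted p = 0.00259 and 0.000227, edgeR). Of 17 tested genes listed as induced by interferon gamma, IFNG included, 3 were higher and 2 lower with DFO, where 6.7% of all genes were called, and 2 were higher and 1 lower with T003, where 12.5% were. GBP4 was higher with both agents (log2 fold change 0.13 in each), GBP5 was higher with DFO (0.24), and NLRC5 was lower with both (-0.25 and -0.28). Without DFO 24 h replicate 1 or untreated replicate 2 the rises with DFO became 1, without DFO 24 h replicate 2 the falls became 0, and the rises with T003 became 1 without untreated replicate 2 or either T003 24 h library.

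In the mitochondrial set, AARS2 was lower with both agents, NARS2 was higher with DFO, and CARS2 and TARS2 were higher with T003. After DFO for 24 h, 2 of 16 were called (12.5%), beside 6.7% of all genes and 13.4% of those within the range of levels of the 38, with a median log2 fold change of -0.03 over the set. After T003, 3 of 16 were called (18.8%), beside 12.5% of all genes and 24.3% of those within that range, with a median of 0.00. Both counts became 0 without untreated replicate 2. The DFO count also became 0 without untreated replicate 1 or DFO 24 h replicate 2, and the T003 count without T003 24 h replicate 2. Each of these calls was lost in 4 to 7 of the 10 leave-one-out fits.

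AARS2, the mitochondrial alanyl enzyme, had 59.7 and 59.3 CPM in DFO 24 h cells and 62.1 and 60.6 CPM in T003 24 h cells, against 66.4 and 66.1 CPM in untreated cells. Its log2 fold change was -0.16 with DFO (SE 0.03, adjusted p = 0.0135, edgeR) and -0.11 with T003 (SE 0.03, adjusted p = 0.0401, edgeR). At 6 h it had 62.0 and 63.6 CPM in DFO cells and 62.1 and 64.6 CPM in T003 cells. These lay below both untreated libraries without passing the test. At 6 h, 43.0% of all genes with DFO and 39.3% with T003 did not overlap the untreated libraries. Both alanyl genes were thus called lower with both agents, and the cytosolic one had the wider change.

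CARS2 had 72.3 and 71.4 CPM in T003 24 h cells, against 66.7 and 65.6 CPM in untreated cells (log2 fold change 0.12, SE 0.03, adjusted p = 0.0309, edgeR). DFO 24 h cells had 72.6 and 70.0 CPM (log2 fold change 0.11, adjusted p = 0.0690, edgeR). The cysteinyl pair thus went opposite ways with T003, CARS1 lower and CARS2 higher. CARS2 overlaps ING1.

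TARS2, the mitochondrial threonyl enzyme, had 70.1 and 70.7 CPM in T003 24 h cells, against 65.1 and 65.6 CPM in untreated cells (log2 fold change 0.11, SE 0.03, adjusted p = 0.0235, edgeR). NARS2, the mitochondrial asparaginyl enzyme, had 38.4 and 40.7 CPM in DFO 24 h cells, against 35.0 and 35.8 CPM in untreated cells (log2 fold change 0.16, SE 0.04, adjusted p = 0.0431, edgeR). T003 24 h cells had a NARS2 level of 38.1 and 39.1 CPM (adjusted p = 0.0797, edgeR). The NARS2 call was lost with no filter on low counts (adjusted p = 0.0645), as were CARS2 (0.0648) and TARS2 (0.0721) with T003.

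The extremes of the mitochondrial set with T003 were not called. WARS2 was the lowest, with 12.8 and 13.1 CPM in T003 24 h cells, against 15.2 and 14.6 CPM in untreated cells (log2 fold change -0.20, SE 0.06, adjusted p = 0.0707, edgeR). YARS2 was the highest, with 39.7 and 42.9 CPM in T003 24 h cells, against 37.4 and 37.3 CPM in untreated cells (log2 fold change 0.15, SE 0.04, adjusted p = 0.0516, edgeR). The other mitochondrial genes, EARS2, FARS2, HARS2, IARS2, LARS2, MARS2, PARS2, RARS2, SARS2 and VARS2, were called with neither agent. HARS1 and HARS2, whose annotated genes stand head to head 84 bases apart, were not called either.

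At 6 h none of the 38 genes was called with either agent by edgeR. In all, 0.0248% of genes were called with DFO at 6 h and 0.0298% with T003, so almost nothing passed at this time. At an unadjusted p under 0.05, 3 of 22 cytosolic and 3 of 16 mitochondrial genes passed with DFO, and 2 of 22 and 1 of 16 with T003. Of all 20125 genes, 2494 passed in this way with DFO and 1516 with T003. The DESeq2 Wald test called 1 cytosolic gene with DFO and no other of the 38.

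Compared with 6 h of the same agent, the 24 h cells showed a similar pattern. The untreated libraries were not among the groups compared, but the 24 h libraries are shared with the comparisons above. Time in culture differed between 24 h and 6 h as well, so it cannot be told apart from an agent's effect. After DFO, 6 of 22 cytosolic genes were called, beside 9.89% of all genes (5.29% higher and 4.6% lower): FARSA, KARS1, YARS1 and AIMP1 higher, AARS1 and CARS1 lower. After T003, 10 of 22 were called (45.5%). The share was 13.5% of all genes (7.55% higher and 5.93% lower) and 26.3% of those within that range. The same 4 genes were higher, and AARS1, CARS1, EPRS1, IARS1, MARS1 and NARS1 lower. AARS1 differed from its 6 h level by a log2 of -0.28 with DFO (adjusted p = 0.000339, edgeR) and -0.38 with T003 (adjusted p = 3.24e-05, edgeR). Leaving out DFO 24 h replicate 1 brought the 6 calls with DFO to 2, and leaving out T003 6 h replicate 1 or either T003 24 h library brought the 10 with T003 to 6.

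In the mitochondrial set, CARS2 and MARS2, the mitochondrial methionyl enzyme, were higher at 24 h than at 6 h with DFO. With T003, CARS2, MARS2 and TARS2 were higher at 24 h than at 6 h and WARS2 was lower. The 2 calls with DFO were 12.5% of the 16 genes, beside 9.89% of all genes. The 4 calls with T003 were 25% of the 16 genes, beside 13.5% of all genes. Of genes within the range of levels of the synthetase and scaffold genes, 19.3% were called with DFO and 26.3% with T003. Both shares of the mitochondrial set lay below these. WARS2 had 12.8 and 13.1 CPM in T003 24 h cells, against 16.3 and 14.9 CPM in T003 6 h cells (log2 fold change -0.27, SE 0.06, adjusted p = 0.0188, edgeR). The 2 DFO calls became 0 without DFO 24 h replicate 1, and the 4 T003 calls became 1 without T003 6 h replicate 1 or T003 24 h replicate 1.

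**Figure D5:**
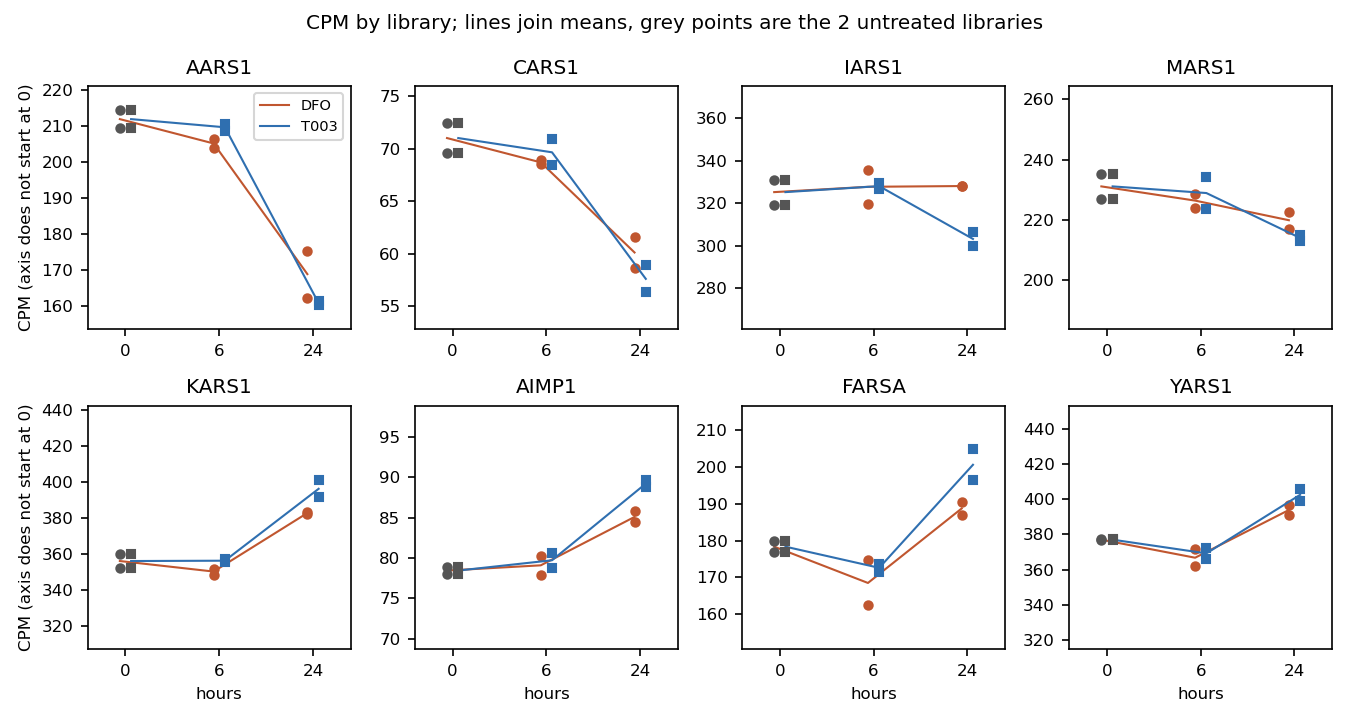
CPM of 8 cytosolic genes at 0, 6 and 24 h of DFO (circles) and T003 (squares), with a point per library and lines through the group means; the axes do not start at 0, and the same 2 untreated libraries (grey) begin both lines. AARS1 and CARS1 stay near their untreated level at 6 h and are lower at 24 h, and KARS1 and AIMP1 are higher at 24 h.

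Compared directly at 24 h, DFO and T003 differed in none of the 38 genes by edgeR, while 1.34% of all genes were called. At an unadjusted p under 0.05, 6 of 22 cytosolic and 2 of 16 mitochondrial genes passed, beside 2794 of all 20125 genes. IARS1 had the smallest adjusted p, with 328 CPM in both DFO 24 h libraries and 300.1 and 306 CPM in T003 24 h cells (log2 difference 0.11, 95% interval 0.05 to 0.17, adjusted p = 0.0792, edgeR). For AARS1 the difference was 0.07 (95% interval 0.00 to 0.14), and for CARS1 0.06 (-0.02 to 0.14). A call with T003 and not with DFO is therefore not shown to be a difference between the agents. At 6 h the agents differed in no gene of the 38 and in 0% of all genes. Still, 1 mitochondrial gene and no cytosolic gene passed an unadjusted p of 0.05 at 6 h, beside 1334 of all 20125 genes.

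Genes around the synthetases were read from lists of related functions. Among 25 tested genes of ATF4 and amino acid supply, none was higher and 7 were lower with DFO, beside 3.43% higher and 3.27% lower over all genes, with a median log2 fold change of -0.07. With T003, 2 were higher and 10 lower, beside 7.1% higher and 5.44% lower over all genes, with a median of -0.11. Of genes within the range of levels of the 38, 13.4% were called with DFO and 24.3% with T003, for this and the lists below. SLC7A11, the cystine carrier, had 40.6 and 39.1 CPM in DFO 24 h cells and 37.95 and 35.6 CPM in T003 24 h cells, against 74.0 and 83.2 CPM in untreated cells (adjusted p = 5.06e-06 and 2.28e-06, edgeR). CEBPB, which encodes a C/EBP factor, had 34.0 and 34.6 CPM in DFO 24 h cells and 35.4 and 31.6 CPM in T003 24 h cells, against 57.0 and 62.1 CPM in untreated cells. With DFO and T003 the log2 fold changes were -0.98 and -1.10 for SLC7A11 and -0.80 and -0.83 for CEBPB, wider than those of AARS1.

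SLC3A2, the partner of SLC7A11, fell with DFO (log2 fold change -0.26, adjusted p = 0.000438, edgeR) and by less with T003 (-0.12, adjusted p = 0.0224, edgeR). DDIT3 fell with both agents (-0.55 and -0.64). ATF4 itself, named here after its values were seen, had 347 and 339 CPM in DFO 24 h cells and 346 and 374 CPM in T003 24 h cells, against 378 and 399.5 CPM in untreated cells, and passed with DFO (adjusted p = 0.0148, edgeR) but not with T003 (0.0820). The SLC3A2 call with T003 and the ATF4 call with DFO were each lost without untreated replicate 2 or either 24 h library of that agent. ATF4 activity is set mainly at translation, which these data do not measure. The count with T003 became 5 lower without untreated replicate 2 or T003 24 h replicate 2, and the 2 higher became 0 without T003 24 h replicate 1.

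In the list of tRNA maturation and export, most of the genes called were higher at 24 h. Of 28 genes, 3 were higher and none lower with DFO, beside 3.43% higher and 3.27% lower over all genes, with a median log2 fold change of 0.04. With T003, 12 were higher and 1 lower, beside 7.1% higher and 5.44% lower, with a median of 0.08. Against 6 h of the same agent, 12 were higher and 1 lower with DFO (median 0.09), beside 5.29% higher and 4.6% lower, and 11 were higher and 1 lower with T003 (median 0.08), beside 7.55% higher and 5.93% lower. Between the agents at 24 h only TRMT61A was called, beside 1.34% of all genes. TRMT61A, part of a tRNA methyltransferase, had 75.9 and 73.3 CPM in T003 24 h cells, against 59.5 CPM in both untreated libraries (log2 fold change 0.33, adjusted p = 0.000584, edgeR). TRMT1, another tRNA methyltransferase, was higher by 0.18. XPOT, the exporter of tRNA from the nucleus, was the 1 gene lower with T003 against untreated cells (-0.19). PUS7, a pseudouridine synthase, and NSUN2, an RNA methyltransferase, were higher with DFO (log2 fold changes of 0.21 and 0.10). Both were also higher with T003 (adjusted p = 0.00664 and 0.0165, edgeR). Without untreated replicate 2 the 12 rises with T003 became 4, and without that library or DFO 24 h replicate 2 the 3 with DFO became 0. Against 6 h, the 12 rises with DFO became 2 without DFO 6 h replicate 1 or DFO 24 h replicate 2, and the 11 with T003 became 4 without T003 6 h replicate 1 or T003 24 h replicate 1.

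In the other lists, the widest changes among the genes named were those of PPP1R15A, which targets a phosphatase to eIF2, and GTF3C3, a subunit of the polymerase III factor TFIIIC. PPP1R15A was higher with T003 (log2 fold change 0.42, adjusted p = 0.00339, edgeR) and stood at 0.16 with DFO (adjusted p = 0.255, edgeR). GTF3C3 was lower with both agents (-0.17 and -0.34). Of 16 genes of eIF2, its kinases and its partners, 2 were higher and none lower with DFO (EIF2S3 and EIF2S1), beside 3.43% higher and 3.27% lower over all genes. With T003, 3 were higher and 2 lower, beside 7.1% higher and 5.44% lower, with EIF2S1 (0.13) and PPP1R15A higher and PPP1R15B (-0.10) lower among them. Of 7 cytosolic elongation factor genes, EEF2K was higher with DFO and EEF1A1 lower with T003. Of 15 genes of mitochondrial elongation and charging, PTRH2, a peptidyl-tRNA hydrolase, was higher with both agents (0.17 and 0.28). Of 20 genes of RNA polymerase III and its factors, 1 was higher and 1 lower with DFO, and 4 were higher and 2 lower with T003, with POLR3G higher (0.23 and 0.29) and GTF3C3 lower in both comparisons and POLR3A higher with T003 (0.22). The median of these 20 genes was 0.00 with DFO and 0.05 with T003. None of 4 genes of tRNA editing and related factors passed with either agent. Without untreated replicate 2 no call with DFO was left in these lists; with T003, 2 eIF2 genes were higher and 0 lower, 2 polymerase III genes higher and 1 lower, and EEF1A1 was not called, while PTRH2 was.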

How the data were processed

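Polyadenylated RNA of 10 NK-92 libraries was sequenced on a NovaSeq-6000. Trimming used fastp 0.21.0, alignment to hg38 used HISAT2 2.2.1, and counting of RefSeq genes used StringTie 2.1.6, per the submitters' processing notes. The authors deposited estimated counts per gene, whole numbers that needed no rounding and were not normalized; estimates made from coverage can split reads of overlapping genes either way. Levels were computed here as TMM-scaled CPM. All 10 libraries entered 1 edgeR 4.0.16 model (R 4.3.3, quasi-likelihood F-test, filterByExpr with a minimum count of 10, 5 residual degrees of freedom), and p-values were adjusted by Benjamini-Hochberg over 20125 genes. SE is the log2 fold change over the square root of F. The script was tested on simulated data. Libraries held 107117892 to 143575614 counts, and the model's spread takes in both counting error and the variation between libraries.

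Genes with an adjusted p under 0.05 at 24 h against untreated cells and the extremes of each set were named, with up to 3 called genes per other list. The members and lists were chosen with earlier results of these data known. Lengths per kb and coordinates come from GENCODE and RefSeq tables for hg38. Alternatives were leaving out each library, the replicate number as a block, a fit of the compared groups alone, a minimum fold change of 1.2, DESeq2 1.42.0, limma-voom (limma 3.58.1), RLE scaling, a filter of 1 CPM and none. A planned search of protein sequences was not run. One gene that the naming rule takes is not reported here.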

Additional observations from a re-analysis of the deposited data

Results flagged for a closer look

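None of the 38 genes was called between the agents. Of the other genes named above, 5 differed between DFO and T003 at 24 h in the test of that difference (edgeR). TRMT61A had 63.3 and 62.3 CPM in DFO 24 h cells and 75.9 and 73.3 CPM in T003 24 h cells (log2 difference -0.25, SE 0.04, adjusted p = 0.0223). POLR3A, the largest subunit of RNA polymerase III, had 84.9 and 82.3 CPM in DFO 24 h cells and 96.2 and 98.3 CPM in T003 24 h cells (-0.22, SE 0.03, adjusted p = 0.0140). GTF3C3, a subunit of its factor TFIIIC, had 74.3 and 71.9 CPM in DFO 24 h cells and 64.3 and 65.2 CPM in T003 24 h cells (0.18, SE 0.03, adjusted p = 0.0365). SLC3A2 had 199.6 and 202 CPM in DFO 24 h cells and 222 and 220.4 CPM in T003 24 h cells (-0.14, SE 0.03, adjusted p = 0.0497). EEF1A1, the elongation factor that brings charged tRNA to the ribosome, had 7015 and 6877 CPM in DFO 24 h cells and 6494 and 6537 CPM in T003 24 h cells (0.092, SE 0.02, adjusted p = 0.0441). Each of the 5 lost its call without any 1 of the 4 libraries of 24 h, those of SLC3A2, EEF1A1 and GTF3C3 were also lost under a replicate block, and the 270 genes called in this comparison became 14 without T003 24 h replicate 2.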

How the results depend on the processing

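No call among the 38 genes changed direction under any alternative. Over 18 alternatives for each call of a member, 575 results kept their call and 145 lost it. AARS1 kept its call in all 18 with both agents, against untreated cells and against 6 h. CARS1 kept it in all 18 with T003 in both comparisons, and with DFO in 17 against untreated cells and 15 against 6 h, where it was lost at a fold change of 1.2 and without DFO 6 h or DFO 24 h replicate 1. RLE scaling moved no count by more than 1.5 times.

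With a fold change of at least 1.2, genes called at 24 h against untreated cells became 472 with DFO and 859 with T003, cytosolic members 1 and 2, and mitochondrial members 0 in both. At this fold, 3 genes passed with T003 at 6 h, 39 between the agents at 24 h, 731 between 24 h and 6 h of DFO and 956 of T003, with 1 and 2 cytosolic and 0 and 1 mitochondrial members. With the 2 compared groups alone, 851 genes, 2 cytosolic and 1 mitochondrial member passed with DFO at 24 h, 1 mitochondrial member with T003 at 24 h, 55 genes between the agents at 24 h and 2 at 6 h, and 1293 between 24 h and 6 h of DFO.

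With no filter, 1 mitochondrial member passed with each agent at 24 h, 16 genes with DFO at 6 h, 1 cytosolic member between the agents at 24 h and 2 genes at 6 h. With a filter of 1 CPM, 6 mitochondrial members passed with T003 at 24 h, 446 genes and 1 cytosolic member between the agents at 24 h and 2 genes at 6 h. DESeq2 called 6 mitochondrial members with T003 at 24 h, 522 genes and 1 cytosolic member with DFO at 6 h, 81 genes with T003 at 6 h, 888 genes and 1 cytosolic member between the agents at 24 h and 14 genes at 6 h. Limma-voom called 5 mitochondrial members with T003 at 24 h, 25 genes with DFO at 6 h, 1 cytosolic member between the agents at 24 h and 1 gene at 6 h. The cause of these shifts was not tested.

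The replicate numbers gave no sign of pairing: deviations of same-numbered libraries correlated at -0.05 to 0.01 over 10 pairs of groups. The correlation took in all genes tested, weakly counted ones included, so it cannot show that the libraries were unpaired. With the replicate number as a block, 1 mitochondrial member passed with DFO at 24 h, 2 genes with DFO and 1 with T003 at 6 h, and 117 genes between the agents at 24 h and 1 at 6 h. Of the genes named, calls were lost under the block for NARS2 and EIF2S1 with DFO (adjusted p = 0.0573 and 0.0609), AARS2 and EEF1A1 with T003 (0.0573 and 0.0684), EPRS1 and MARS1 between 24 h and 6 h of T003 (0.0549 and 0.0630), and SLC3A2, EEF1A1 and GTF3C3 between the agents at 24 h (0.0573, 0.0723 and 0.0532).

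Leaving out 1 library gave, at 24 h against untreated cells, 431 to 1383 genes, 2 to 4 cytosolic and 0 to 2 mitochondrial members with DFO, and 1084 to 2544 genes, 4 to 9 cytosolic and 0 to 3 mitochondrial members with T003. It gave 1 to 11 genes with DFO and 1 to 13 with T003 at 6 h and 14 to 229 genes between the agents at 24 h and 0 to 4 at 6 h, with 0 members in each. Between 24 h and 6 h it gave 950 to 1824 genes, 2 to 7 cytosolic and 0 to 2 mitochondrial members with DFO, and 1336 to 2739 genes, 6 to 11 cytosolic and 1 to 4 mitochondrial members with T003.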
